A study of Mus musculus with 6 samples.

Results

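The genes of the germline and of meiosis were compared between 2 mouse lines. MIN6 is an insulin-secreting insulinoma line, and D3 is an embryonic stem (ES) line, grown here on gelatin without feeder cells and held undifferentiated by leukemia inhibitory factor. Total RNA of 3 MIN6 samples at passage 23 and 3 D3 samples at passage 21 was measured with the Illumina Mouse WG-6 v2.0 platform, 1 array for each sample. No treatment or genetic change was given to either line, and each group is a single cell line, so the comparison is between these lines and not between β-cells and ES cells at large. The members were a list of 52 genes named for their roles in meiosis, germ cell RNA control, piRNA silencing, the oocyte and the testis, and a member was measured by every probe that carries its symbol. Of these, 51 genes had at least 1 probe, out of 19057 genes on the array, and together they had 73 of the 45281 probes. The remaining member, Tex13, had no probe under that symbol. RefSeq gives it as an older name of Tex13b, whose brighter probe stood at 7.84, 7.85 and 7.62 in MIN6 cells and at 7.55, 7.68 and 7.63 in D3 cells (log2 signal) and was not called, and Tex13b is not counted among the 51.

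Germ cells are set aside from the body's other cells early in development, and in the mouse they arise from cells that still resemble the pluripotent epiblast. They later enter meiosis, in which homologous chromosomes are held by a meiotic form of cohesin, joined by the synaptonemal complex and broken and repaired by a dedicated recombination machinery, while PIWI proteins loaded with piRNAs and their Tudor-domain partners silence transposons. In somatic cells many of these genes are kept off by promoter DNA methylation. A non-canonical Polycomb complex that contains E2F6, MGA and PCGF6 is also known to repress germline genes. ES cells are known to transcribe some of them without entering meiosis.

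Signals are given as log2 of the quantile-normalized intensity, and each change is the MIN6 mean minus the D3 mean. A gene was taken as on in a line where its probe was above background on all 3 arrays (detection p under 0.01), and as silent where it was above background on none. The lowest signals above background lay between 7.72 and 7.78 on the MIN6 arrays and between 7.75 and 7.81 on the D3 arrays. Where a line was silent, the fold against it is a bound, written as "at least", set against those lowest signals. A gene was called with limma at an adjusted p under 0.05 over all probes (Benjamini-Hochberg) and a fitted difference of at least 1.5-fold. Between 34.4% and 35.9% of probes were above background on each array, and the arrays of 1 line correlated at 0.993 to 0.994 across probes, against 0.835 to 0.838 between the lines. The 6 β-cell markers, among them Ins2 and Pdx1, were on in MIN6 and silent in D3 cells, and the 6 ES cell markers, among them Pou5f1 and Sox2, were on in D3 and silent in MIN6 cells. Of 8 fibroblast and feeder markers, Thy1 was lower in MIN6 cells by at least 2.22-fold and the other 7 were silent in both lines, with a summed signal of 1026 to 1118 in MIN6 and 1407 to 1490 in D3 cells.

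Of the 51 genes, 23 (45.1%) were called lower in MIN6 than in D3 cells, against 17.5% of all genes, and 4 (7.84%) were called higher, against 17.1% of all genes. On and silent states showed the same split: 19 genes (37.3%) were on in D3 and silent in MIN6 cells, against 5.10% of all genes, and 2 (3.92%) were on in MIN6 and silent in D3 cells, against 5.18%. Only 3 genes, Nanos1, Rec8 and Syce2, were on in both lines (5.88%, against 37.9% of all genes). A further 22 genes were silent in both lines (43.1%), which is near the 43.0% of all genes. The remaining 5 (Tdrd12, Hormad2, Nobox, Piwil1 and Tdrd5) were above background on only some arrays of a line. The 2 lines did not overlap for 34 genes (66.7%, against 54.4% of all genes), and these included all 27 called genes, whose highest adjusted p was 9.85e-05 (limma). The median fitted change was -0.40 for the 51 genes and -0.01 for all genes, and it was 0 for both with each gene silent in 1 line at its bound and each gene silent in both at 0. In RNA from whole cultures, fewer expressing cells and less RNA per cell cannot be told apart.

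**Figure D1:**
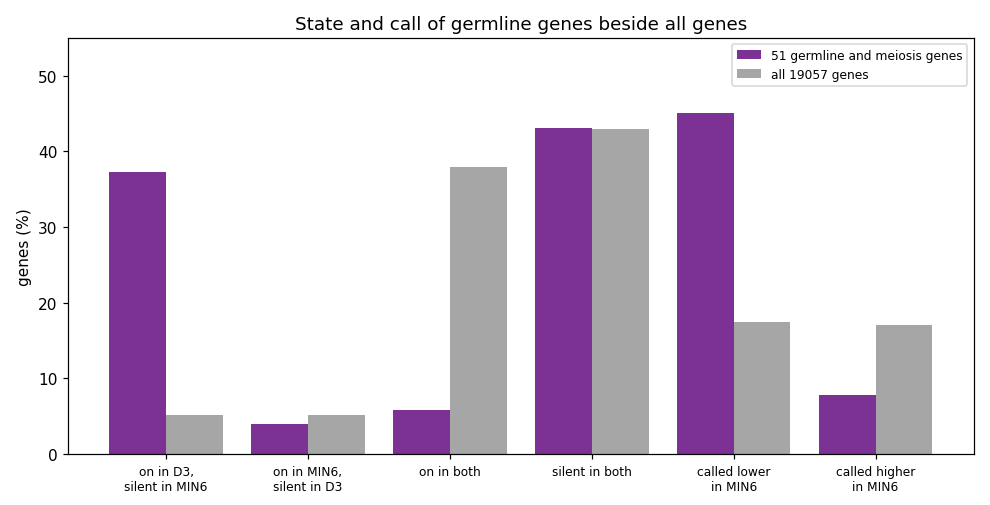
Bars give the share of genes (%) in each on or silent state and each call, for the 51 germline and meiosis genes (purple) beside all 19057 genes (grey). The share on in D3 and silent in MIN6 cells was 37.3% of the germline genes and 5.10% of all genes, while the shares silent in both lines were 43.1% and 43.0%.

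**Figure D2:**
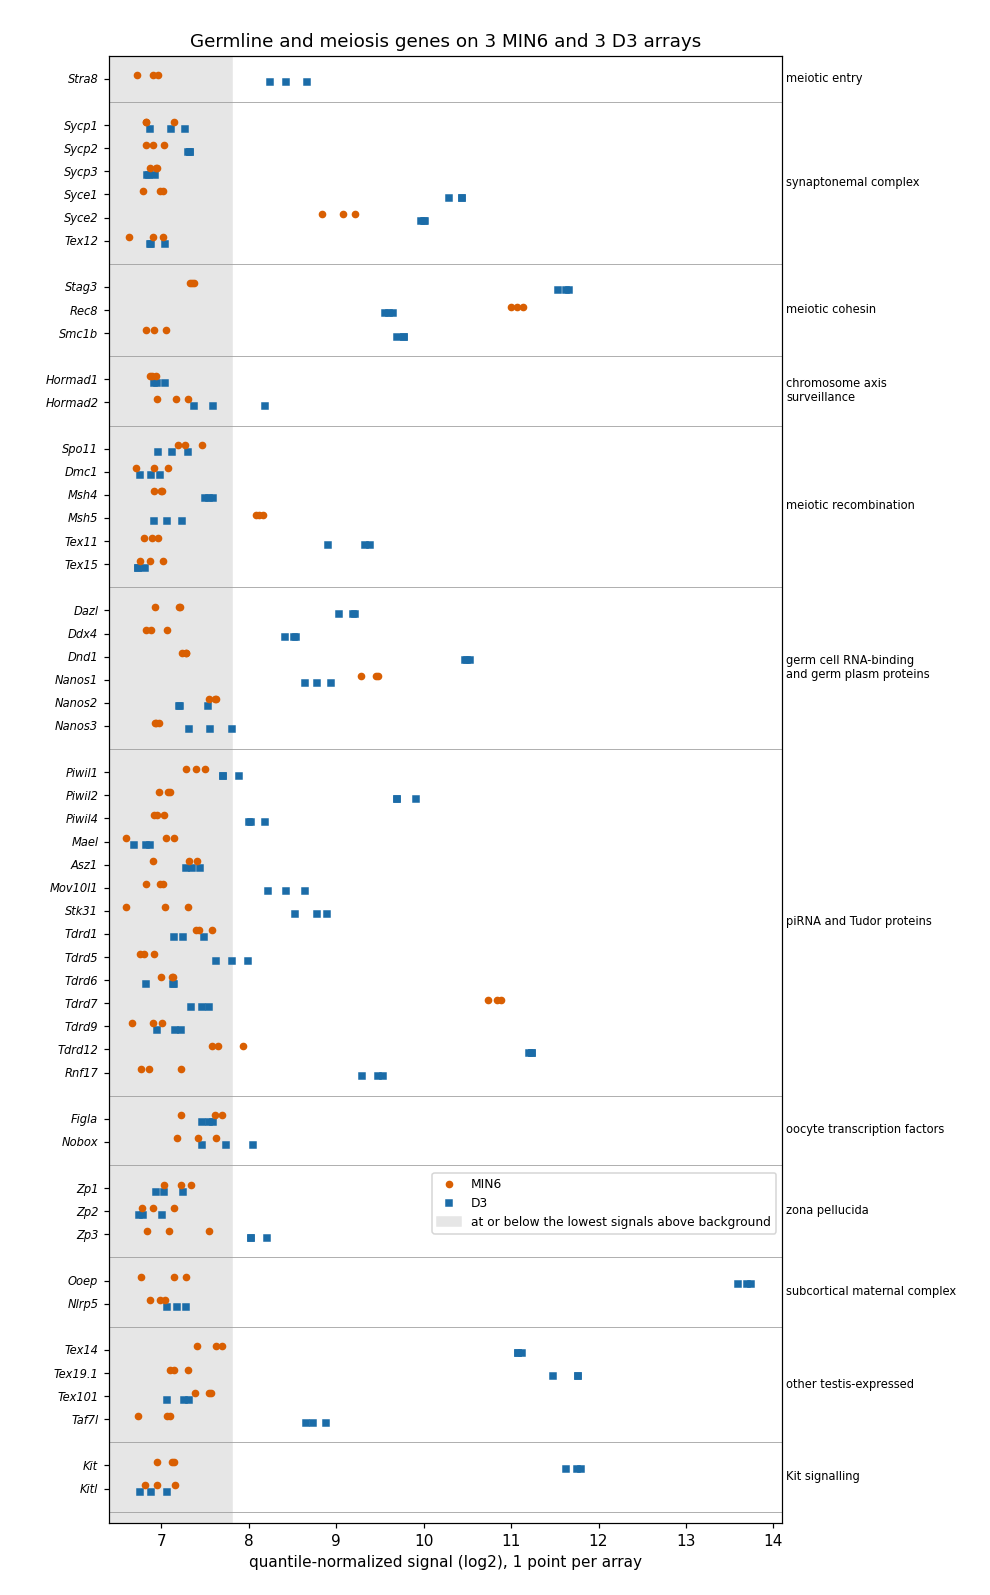
Each point is the quantile-normalized log2 signal of 1 gene on 1 array, with MIN6 as orange circles above D3 as blue squares and the genes grouped by role. The shaded band ends at 7.81, the highest of the lowest signals above background, and 45 of the 51 genes were above background on no MIN6 array.

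The start sites of 7 members show how their promoters differ in the letters that the E2F6 complex is known to read. These are shown because the genes take opposite states: Ooep, Tex19.1, Stag3 and Ddx4 were on in D3 and silent in MIN6 cells, Sycp3 and Mael were silent in both, and Tdrd7 was on only in MIN6 cells. Each runs 5′ to 3′ along the gene's own strand from 250 bases before a RefSeq start to 20 bases after it (GRCm38.p6). Where a gene had several starts, a window with the most CpG dinucleotides is shown. For Tdrd7 it held 32 of them over its full 300 bases, against 4 in the window that begins at chr4:45965085. The windows are chr9:78378569-78378838, minus strand for Ooep, chr11:121145893-121146162, plus strand for Tex19.1, chr5:138280259-138280528, plus strand for Stag3, chr13:112652291-112652560, minus strand for Ddx4, chr10:88459337-88459606, plus strand for Sycp3, chr1:166238725-166238994, minus strand for Mael and chr4:45972047-45972316, plus strand for Tdrd7. Capitals mark the E2F6 motif TCCCGC or its reverse complement GCGGGA, and the E-box CACGTG, which reads the same on both strands and is bound by MAX and its partners. An E-box can share its end base with an E2F6 motif, which does not happen in these windows.
Ooep: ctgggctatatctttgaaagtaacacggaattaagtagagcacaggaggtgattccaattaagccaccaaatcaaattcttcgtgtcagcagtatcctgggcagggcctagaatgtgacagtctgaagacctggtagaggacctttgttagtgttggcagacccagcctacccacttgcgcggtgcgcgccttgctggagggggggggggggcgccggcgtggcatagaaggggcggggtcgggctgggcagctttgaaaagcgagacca
Tex19.1: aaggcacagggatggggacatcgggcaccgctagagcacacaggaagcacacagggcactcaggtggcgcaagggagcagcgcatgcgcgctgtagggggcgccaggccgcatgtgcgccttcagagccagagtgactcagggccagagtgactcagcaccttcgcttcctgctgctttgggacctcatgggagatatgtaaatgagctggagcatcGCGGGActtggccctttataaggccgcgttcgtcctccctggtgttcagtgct
Stag3: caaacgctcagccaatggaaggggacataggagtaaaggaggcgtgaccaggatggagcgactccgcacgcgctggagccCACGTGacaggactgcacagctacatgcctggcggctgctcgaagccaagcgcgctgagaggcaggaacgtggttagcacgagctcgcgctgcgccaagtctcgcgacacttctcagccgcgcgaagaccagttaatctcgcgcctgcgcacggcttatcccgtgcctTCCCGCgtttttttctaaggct
Ddx4: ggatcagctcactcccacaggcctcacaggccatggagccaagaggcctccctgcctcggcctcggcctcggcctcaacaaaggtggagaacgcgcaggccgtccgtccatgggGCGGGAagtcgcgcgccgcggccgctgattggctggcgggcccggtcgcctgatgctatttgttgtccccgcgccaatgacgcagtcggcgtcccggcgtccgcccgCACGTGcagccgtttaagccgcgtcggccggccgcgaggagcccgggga
Sycp3: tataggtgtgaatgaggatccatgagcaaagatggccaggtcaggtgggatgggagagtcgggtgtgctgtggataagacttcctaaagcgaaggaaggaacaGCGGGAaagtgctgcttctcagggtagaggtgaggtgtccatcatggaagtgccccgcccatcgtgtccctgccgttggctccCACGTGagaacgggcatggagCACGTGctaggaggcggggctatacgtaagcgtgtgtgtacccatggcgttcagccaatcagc
Mael: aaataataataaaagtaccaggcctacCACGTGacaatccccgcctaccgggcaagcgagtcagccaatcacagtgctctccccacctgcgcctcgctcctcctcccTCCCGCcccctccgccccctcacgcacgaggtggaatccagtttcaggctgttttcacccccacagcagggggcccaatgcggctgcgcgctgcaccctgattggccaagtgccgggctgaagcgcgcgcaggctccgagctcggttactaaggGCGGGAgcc
Tdrd7: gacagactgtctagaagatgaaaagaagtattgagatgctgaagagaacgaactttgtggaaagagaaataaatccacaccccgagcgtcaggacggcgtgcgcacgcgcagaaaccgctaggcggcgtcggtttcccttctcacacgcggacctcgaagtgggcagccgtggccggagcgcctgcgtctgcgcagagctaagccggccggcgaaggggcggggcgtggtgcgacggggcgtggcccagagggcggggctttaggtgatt
Stag3, Ddx4, Sycp3 and Mael held both motifs, Tex19.1 held the E2F6 motif alone, and Ooep and Tdrd7 held neither. The letters did not separate the printed promoters by state, and promoters chosen by state cannot show whether they do so at large.

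Promoter windows of 300 bases, from 250 before to 50 after a start, were given for 42 of the 51 genes, and a gene was counted where any of its windows held a match. An E2F6 motif stood in 19 of the 42 genes (45.2%), against 30.4% of 15207 measured genes with a window and 20% of all 32851 windows. An E-box stood in 15 of them (35.7%), against 9.51% of measured genes and 7.15% of all windows. Both motifs shared 1 window in 9 of them, Ddx4, Hormad1, Mael, Stag3, Syce2, Sycp1, Sycp3, Tex12 and Zp3 (21.4%, against 3.39% of measured genes and 1.99% of all windows). Among the germline genes on in D3 and silent in MIN6 cells, 7 of 15 had the E2F6 motif and 6 had the E-box, and among those silent in both lines 8 of 17 had the E2F6 motif and 7 had the E-box. Over all measured genes the shares differed by state: the E2F6 motif stood in 34.0% of genes on in D3 and silent in MIN6 cells and in 17.2% of those silent in both, and the E-box in 11.8% and 6.19%. The median number of CpG dinucleotides in a gene's most CpG-rich window was 20 for the members on in D3 and silent in MIN6 cells and 17 for those silent in both, against 15 for all genes on in D3 and silent in MIN6 cells and 5 for all genes silent in both. A match is a description of the sequence and no binding was measured.

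**Figure D3:**
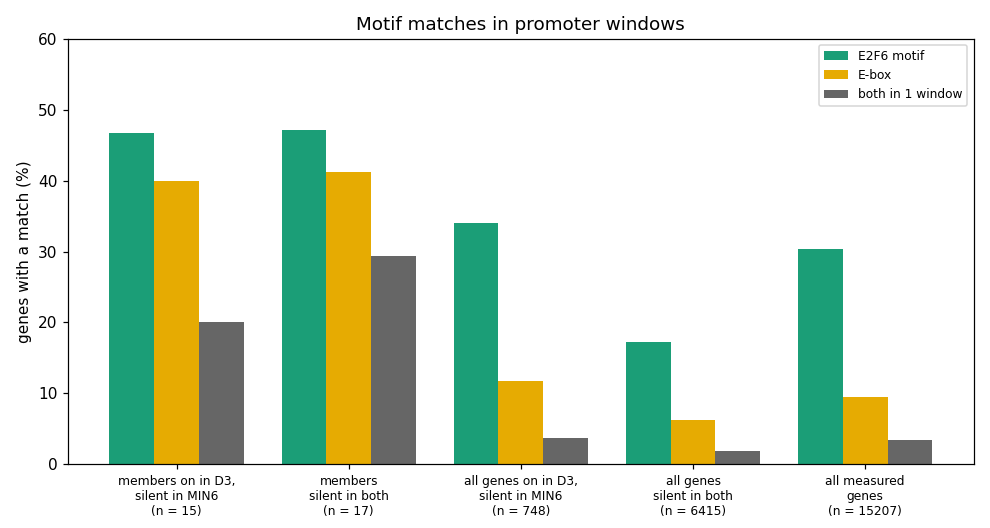
Bars give the share of genes (%) with an E2F6 motif, an E-box or both in 1 promoter window, for germline genes by state and for all genes by the same states. The E2F6 motif stood in 46.7% of germline genes on in D3 and silent in MIN6 cells and in 47.1% of those silent in both, against 30.4% of all measured genes.

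The meiotic cohesin genes were split, 2 of them called lower and 1 called higher in MIN6 cells. Stag3, which encodes the meiosis-specific STAG subunit of the ring, had signals of 7.35, 7.33 and 7.37 in MIN6 cells, against 11.63, 11.54 and 11.66 in D3 cells. It was silent in MIN6 cells and lower there by at least 14.6-fold (change -4.26 ± 0.09 SE, adjusted p = 5.44e-19, limma). Smc1b, the meiotic counterpart of SMC1A, had 6.82, 7.05 and 6.92 in MIN6 cells, against 9.77, 9.77 and 9.70 in D3 cells, and was lower by at least 4.01-fold (adjusted p = 8.19e-16, limma). Rec8, whose product replaces RAD21 as the kleisin that closes the ring, went the other way. Its signals were 11.00, 11.07 and 11.14 in MIN6 cells, against 9.65, 9.56 and 9.60 in D3 cells, a 2.76-fold higher level in MIN6 cells (change 1.47 ± 0.10 SE, adjusted p = 2.69e-11, limma). The lines did not overlap for any of the 3 genes, as for all 27 called members and for 54.4% of all genes. Of 10 mitotic cohesin genes, all on in both lines, 4 were called lower in MIN6 cells and none higher, at most 1.86-fold (Pds5a, a regulator of cohesin release). Among all genes, 37.9% were on in both lines, 17.5% were called lower in MIN6 cells and 17.1% higher. The direct mitotic counterparts of the 3 genes changed little: Smc1a by 0.04, Stag1 by 0.01, Stag2 by 0.38 and Rad21 by 0.21, and none of these 4 was called. Stag3 overlaps Gpc2 on chromosome 5, whose own probe was also lower in MIN6 cells, by at least 1.58-fold. It also overlaps Gal3st4, which was silent in both lines and not called. Further members overlap a protein-coding gene that was not called: Smc1b (Fam118a), Syce2 (Gcdh), Sycp3 (Chpt1), Tex12 (Il18) and Tdrd9 (Rd3l).

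Among 6 synaptonemal complex genes, 2 were called lower in MIN6 cells and 4 were silent in both lines. Syce1, a central element protein, had 6.79, 7.02 and 6.99 in MIN6 cells, against 10.44, 10.29 and 10.44 in D3 cells. It was silent in MIN6 cells and lower by at least 6.25-fold (adjusted p = 4.14e-17, limma). Syce2, another central element protein, was on in both lines, at 9.08, 8.84 and 9.21 in MIN6 cells and between 9.97 and 10.01 on the 3 D3 arrays, and was 1.93-fold lower in MIN6 cells (adjusted p = 1.2e-07, limma). Sycp1, which forms the transverse filaments, Sycp2 and Sycp3, which form the lateral elements, and Tex12, a further central element protein, were at background on every array. D3 cells thus had signal for Syce1 and Syce2 of the central element and none above background for the genes of the lateral elements or the transverse filaments. Neither Hormad1 nor Hormad2, which mark unsynapsed axes, was called. Hormad1 was silent in both lines, and Hormad2 was above background on 1 D3 array only (8.18, against 7.59 and 7.37 on the other D3 arrays).

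The recombination genes were mostly silent. Spo11, which makes the meiotic double-strand breaks, Dmc1, the meiotic strand-exchange recombinase, Msh4, a crossover factor, and Tex15, needed for break repair in the male germline, were at background on all 6 arrays. Tex11, an X-linked gene that promotes crossovers, had 6.89, 6.80 and 6.96 in MIN6 cells, against 9.33, 9.39 and 8.91 in D3 cells, and was lower in MIN6 cells by at least 2.77-fold (adjusted p = 3.68e-13, limma). Msh5, the partner of MSH4, was called higher in MIN6 cells through 1 of its 4 probes, at 8.16, 8.12 and 8.08 in MIN6 cells and 7.07, 7.24 and 6.92 in D3 cells, a bound of at least 1.26-fold. Its other 3 probes, which are annotated to the RefSeq mRNA rather than to a cDNA clone, were at background in both lines, so its higher call rests on a single probe. Stra8, which the retinoic acid signal induces at entry into meiosis, had 6.90, 6.72 and 6.96 in MIN6 cells, against 8.42, 8.67 and 8.24 in D3 cells (lower by at least 1.62-fold, adjusted p = 1.32e-10, limma).

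Genes next to these in the same machinery were called in 1 direction only. Of 21 other recombination and chromosome axis genes with a probe, 12 were called lower in MIN6 cells, none was called higher and 9 were not called. Among all genes, 17.5% were called lower and 17.1% higher. The median change of the 21 genes was -0.86 (-0.19 with silent genes at their bound, against 0 for all genes). Mnd1, which works with DMC1 in strand exchange, was 11.1-fold lower in MIN6 cells although on in both lines. Meiob, a single-stranded DNA binding protein of meiotic recombination, and 4930447C04Rik, a central element gene, were lower by at least 2.26-fold and at least 2.34-fold. Brca2 was 3.47-fold lower, and it also serves repair in dividing somatic cells.

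The germ cell RNA-binding genes were lower in MIN6 cells for 4 of 6 and higher for 1. Dnd1, which protects mRNAs in primordial germ cells, had 7.28, 7.28 and 7.24 in MIN6 cells, against 10.47, 10.53 and 10.50 in D3 cells, and was lower by at least 6.77-fold (adjusted p = 3.48e-17, limma). It overlaps Wdr55 on chromosome 18, and the Wdr55 probe was itself 2.58-fold lower in MIN6 cells. Dazl, a translational regulator of germ cells, had 7.21, 6.93 and 7.20 in MIN6 cells, against 9.21, 9.19 and 9.03 in D3 cells (lower by at least 2.64-fold, adjusted p = 5.67e-13, limma). Ddx4, the mouse vasa helicase, had 7.06, 6.83 and 6.88 in MIN6 cells, against 8.54, 8.41 and 8.52 in D3 cells (lower by at least 1.68-fold, adjusted p = 1.8e-11, limma). Both were silent in MIN6 cells, but for both another probe of the gene was at background in each line. The 3 Nanos genes, which encode translational repressors of germ cells, differed from one another. Nanos1 was on in both lines and 1.53-fold higher in MIN6 cells (9.45, 9.48 and 9.28, against 8.94, 8.78 and 8.64 in D3 cells, adjusted p = 4.15e-05, limma). Nanos2 was silent in both and not called. Nanos3 was called lower in MIN6 cells (6.97, 6.93 and 6.94, against 7.56, 7.32 and 7.81 in D3 cells) but was above background on no array, so no fold is given. Its direction therefore rests on signals at background, and the Nanos1 call lay at the fold threshold and was lost without MIN6 replicate 2 or D3 replicate 3 (that of Nanos3 also without D3 replicate 3).

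The piRNA and Tudor genes, 14 in number, had 7 called lower in MIN6 cells and 1 called higher, and 5 were silent in both lines. Tdrd12, a helicase of secondary piRNA production, had 7.65, 7.58 and 7.93 in MIN6 cells, against 11.24, 11.24 and 11.20 in D3 cells, and was called lower (adjusted p = 6.4e-17, limma). Only 1 of its 3 MIN6 arrays was above background, and with the dim arrays at the floor it was lower by at least 10.7-fold. Piwil2, the PIWI protein known as MILI, had 7.08, 7.10 and 6.97 in MIN6 cells, against 9.91, 9.69 and 9.70 in D3 cells, and was lower by at least 4.07-fold (adjusted p = 1.97e-15, limma). Piwil4, the nuclear PIWI protein MIWI2, had 6.95, 6.92 and 7.03 in MIN6 cells, against 8.18, 8.0 and 8.03 in D3 cells, and was lower in MIN6 cells by at least 1.25-fold, through 1 of its 2 probes. Piwil1, the PIWI protein of late spermatogenesis, was above background on 1 D3 array and was not called.

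Rnf17, a Tudor protein of the germ cell, was lower in MIN6 cells by at least 3.24-fold, Stk31, a Tudor-domain kinase, by at least 1.98-fold and Mov10l1, the helicase that feeds precursors into the pathway, by at least 1.61-fold, and all 3 were silent in MIN6 and on in D3 cells. Tdrd5, a Tudor protein of the chromatoid body, was called lower in MIN6 cells, with 2 D3 arrays above background and a bound of only 1.05-fold. Tdrd7 was the 1 gene of the group that was higher in MIN6 cells. It encodes a Tudor protein of the germ granule that is also known from the lens of the eye, and it had 10.89, 10.84 and 10.74 in MIN6 cells, against 7.54, 7.34 and 7.47 in D3 cells. It was silent in D3 cells and higher in MIN6 cells by at least 8.25-fold (change 3.37 ± 0.10 SE, adjusted p = 4.33e-17, limma). Mael, Asz1, Tdrd1, Tdrd6 and Tdrd9, which act in the piRNA pathway or the germ granule, were silent in both lines. D3 cells thus had signal for Piwil2, Tdrd12, Mov10l1 and Rnf17 while these 5 stayed at background.

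Other piRNA pathway genes had both directions. Of 10 with a probe, 6 were called lower and 2 higher in MIN6 cells. For comparison, 17.5% of all genes were called lower in MIN6 cells, 17.1% higher, and 37.9% were on in both lines. Gpat2, an outer mitochondrial membrane protein needed for piRNA production, was lower by at least 5.17-fold, Pnldc1, the piRNA trimmer, by at least 2.38-fold and Gtsf1, a PIWI cofactor, by at least 1.75-fold. Tdrkh, which tethers PIWI proteins at mitochondria and is a Tudor protein as TDRD7 is, was 2.38-fold higher in MIN6 cells, and Ddx25, an RNA helicase of spermatids, was 1.86-fold higher. Of 10 RNA silencing genes outside the pathway, 3 were called lower in MIN6 cells and 1 higher, and 7 were on in both lines. So few genes give no direction for that list beside these shares. Tarbp2, a partner of Dicer, was 4.19-fold lower in MIN6 cells and Drosha, which cuts primary microRNAs, 2.30-fold lower. Mov10, the somatic relative of Mov10l1, was above background on 1 MIN6 array and lower there by at least 2.94-fold, and Ago4 was higher there by at least 1.25-fold.

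**Figure D4:**
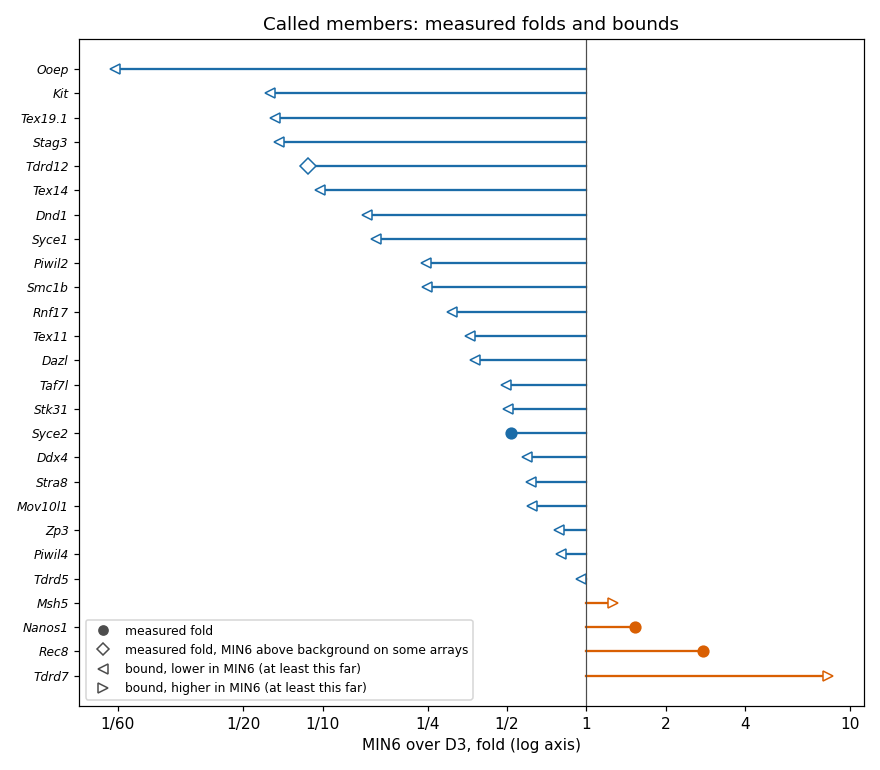
The fold of MIN6 over D3 cells (log axis) for 26 of the 27 called genes, with filled circles for measured folds, an open diamond for Tdrd12 (11.4-fold as measured, above background on 1 MIN6 array) and open triangles for bounds where 1 line was silent. Ooep lies farthest to the left at 61.3-fold and Tdrd7 farthest to the right at 8.25-fold, and Nanos3, above background on no array, has no fold.

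Of the genes of the oocyte, Ooep had the largest bound of the 51. It encodes a protein of the subcortical maternal complex, which forms in the oocyte and is needed for the first cleavages, and lies on chromosome 9. Its intensity was 185.9, 101.9 and 123.9 in MIN6 cells, against 15842.9, 13431.6 and 11680.0 in D3 cells before normalization, and the bound was at least 61.3-fold (adjusted p = 2.07e-20, limma). Nlrp5, which encodes another protein of the same complex, was silent in both lines on all 3 of its probes. The remaining genes of the complex were divided in the same way. Khdc3, also on chromosome 9, was lower in MIN6 cells by at least 16.2-fold (7.44 on average in MIN6 cells, against 11.76 in D3 cells) and Tle6, above background on 2 MIN6 arrays, by at least 2.91-fold, while Padi6 was silent in both lines. Of the 3 zona pellucida genes, which encode the coat of the egg, Zp3 had 6.84, 7.54 and 7.09 in MIN6 cells, against 8.21, 8.02 and 8.03 in D3 cells, and was lower in MIN6 cells by at least 1.27-fold (adjusted p = 4.82e-06, limma), and Zp1 and Zp2 were silent in both. Figla and Nobox, transcription factors that drive oocyte genes including those of the zona, were not called. Figla was silent in both lines, and Nobox was above background on 1 D3 array.

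Of 15 other oocyte and maternal effect genes, 3 were called lower in MIN6 cells, none higher, and 10 were silent in both lines, Gdf9 and Bmp15 among them. Of 20 spermatogonial and spermiogenesis genes, 14 were silent in both lines, 3 were called higher in MIN6 cells and 1, Odf2, lower. The 3 were Crem (at least 2.19-fold), Hspa2 (2.33-fold) and Id4 (at least 1.75-fold), which are not confined to the testis. Over all genes, 43.0% were silent in both lines, 17.5% were called lower in MIN6 cells and 17.1% higher. Most genes of these 2 lists were thus at background in both lines. The lists mix early and late stages of egg and sperm, which were not counted apart.

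Of the 4 other testis-expressed members, 3 were called lower in MIN6 cells. Tex19.1, which restrains retrotransposons in germ cells and is known from ES cells, had 7.31, 7.10 and 7.15 in MIN6 cells, against 11.48, 11.77 and 11.76 in D3 cells, and was lower by at least 15.2-fold (adjusted p = 1.62e-18, limma). Tex14, needed for the bridges between germ cells, had 7.62, 7.69 and 7.41 in MIN6 cells, against 11.08, 11.13 and 11.08 in D3 cells, and was lower by at least 10.2-fold (adjusted p = 3.15e-17, limma). Taf7l, an X-linked TFIID subunit of germ cells, was lower by at least 2.02-fold, and Tex101, a surface protein of germ cells, was silent in both lines. Kit, the receptor that germ cells need for survival and migration, had 7.12, 7.14 and 6.95 in MIN6 cells, against 11.63, 11.75 and 11.80 in D3 cells, and was lower by at least 15.8-fold (adjusted p = 2.9e-19, limma). A second of its 3 probes was also silent in MIN6 and on in D3 cells, and the third was at background. Its ligand Kitl was at background in both lines on all 3 probes.

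The 13 members with several probes show how far a call rests on 1 of them. In 8 (Dazl, Ddx4, Kit, Msh5, Piwil1, Piwil4, Rnf17 and Stk31) the probes of a gene were not all called alike, and in the other 5 (Kitl, Nlrp5, Spo11, Sycp2 and Tdrd1) every probe was at background. No member had probes called in opposite directions. Of the 73 member probes, 26 were called lower in MIN6 cells and 4 higher. Of all 45281 probes, 6068 (13.4%) were called lower and 5649 (12.5%) higher.

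Genes of early germ cells and of the complexes known to repress germline genes were set beside the members. Among all genes, 17.5% were called lower in MIN6 cells, 17.1% higher, and 43.0% were silent in both lines. Of 15 primordial germ cell genes, 14 were called lower in MIN6 cells, and many of these, Pou5f1 and Nanog among them, are equally genes of ES cells. Prdm1, which sets up the germ cell fate, was silent in both lines, and Prdm14 was lower in MIN6 cells by at least 2.29-fold and Tfap2c by at least 23.7-fold. Of 24 repressor genes, 10 were called lower in MIN6 cells, 2 higher and 12 not. E2f6 changed by -0.20, Mga by -0.19 and Max by -0.41, on in both lines and not called, while Pcgf6 was 3.01-fold lower in MIN6 cells and Setdb1, an H3K9 methyltransferase, 2.48-fold lower. Wdr5, a subunit of the E2F6 complex and of H3K4 methyltransferases, was 4.39-fold lower. Dnmt1, the maintenance methyltransferase, changed by -0.08 and was not called. Dnmt3b, a de novo methyltransferase, was on in both lines and 15.7-fold lower in MIN6 cells, and its cofactor Dnmt3l was lower by at least 60.1-fold. The Dnmt3b fold is that of its brightest probe. For Dnmt3b the paper reports array folds that differ widely and a qRT-PCR fold that lies between them, each lower in MIN6 cells. Yaf2, a subunit shared by several Polycomb complexes, was above background on 1 D3 array and higher in MIN6 cells by at least 4.13-fold. Ring1, a Polycomb ubiquitin ligase, was 2.08-fold higher in MIN6 cells. Rnf2, another Polycomb ubiquitin ligase of the list, went the other way and was 2.28-fold lower, and L3mbtl2 was 1.83-fold lower. Of 13 markers of gonad somatic cells, 9 were silent in both lines, 3 were called lower in MIN6 cells (Amhr2 by at least 5.07-fold, Insl3 by 2.96-fold and Cyp11a1 by at least 2.27-fold) and Inha was higher there by at least 1.30-fold. Their summed signal was 2047 to 2126 in MIN6 cells and 3787 to 4142 in D3 cells, and the part of such cells in the results was not tested.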

How the data were processed

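RNA of 3 MIN6 and 3 D3 samples was labelled with biotin and measured on Illumina Mouse WG-6 v2.0 arrays. The authors deposited linear intensities of 45281 probes, without normalization or background subtraction. The deposited detection score of a probe carries the heading of a p-value, but its values are 1 minus p, so it was turned back into p. The deposited processed values are on a log2 scale, which the methods describe as quantile-normalized with lumi, and served only as an alternative.

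Intensities were quantile-normalized over the 6 arrays, taken to log2 and fitted with limma 3.58.1 in R 4.3.3 (MIN6 minus D3, no block, Benjamini-Hochberg over all probes), without a filter on signal. Calls needed at least 1.5-fold at an adjusted p under 0.05. The fold against a line above background on no array or, where the text says so, on some arrays is a bound: the other line's mean against the mean, over that line's arrays, of the higher of the lowest signal above background and the probe's own signal. Probes with 1 gene symbol numbered 34885, those with several 18 and those with none 10378, and the brightest probe of a gene (mean log2 signal over the 6 arrays) stood for it. The number of arrays limits the precision. The members and the gene lists were chosen with earlier results of these data known. All members are named, and from each list examples among the called genes with the largest changes or of a small class. Some (Smc1a, Stag1, Stag2, Rad21, Dnmt1, E2f6, Mga, Max, Setdb1, Rnf2, L3mbtl2, Prdm14, Tfap2c, Padi6, Gdf9 and Bmp15) were named after their values were seen. Promoter windows came from RefSeq (GRCm38.p6), and 9 members without one there were left out of the promoter counts. Promoters to print were chosen by state, and of a gene's windows the most CpG-rich was printed.

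Alternatives were normexp background correction (offset 16), median scaling, cyclic loess, detection filters, a replicate block (statmod 1.5.0), a trended and robust prior, the authors' values, leaving out arrays 1 at a time, the methods' t-test, another choice of a gene's probe and other fold and detection thresholds. The design text calls the replicates independent, and if they were not separate cultures, the p-values cover only the sample spread, which may be technical. Slides are not given in the sources used here. Tables and figures used Python 3.11.15, pandas 2.3.3, numpy 2.4.6 and matplotlib 3.10.9.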

Additional observations from a re-analysis of the deposited data

How the results depend on the processing

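Over all settings, 19 to 28 members were called lower in MIN6 cells (main 23) and 3 to 6 higher (main 4), and no called member changed direction. The genes called lower were shared in full with median scaling, cyclic loess, a trended and robust prior and the methods' t-test, adjusted or not. Leaving out each array in turn gave 23 to 25 lower and 3 to 4 higher, with Hormad2 or Msh4 gained and Nanos1 or Nanos3 lost, and the members on in D3 and silent in MIN6 cells numbered 19 to 20. At a detection p under 0.05 they also numbered 19, but Tex14 and Zp3 left (lowest MIN6 detection p 0.01496 and 0.04487) and Tdrd5 and Piwil1 entered. At under 0.001 they numbered 18, with Piwil4 and Zp3 lost and Tdrd12 gained. Members on in MIN6 and silent in D3 cells numbered 2 at a detection p under 0.01, Tdrd7 and Msh5. At under 0.05 only Msh5 remained, since 1 D3 array of Tdrd7 had a detection p of 0.03953. At under 0.001 only Tdrd7 remained, since 1 MIN6 array of Msh5 had a detection p of 0.00107. The replicate block gave 23 lower and 4 higher and changed no call. The replicate numbers do not pair the samples: deviations of same-numbered arrays correlated at 0.010, -0.003 and -0.023.

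Calls close to background or to the fold threshold were the ones lost: Nanos1, Nanos3, Tdrd5 and Zp3 with the authors' values (20 lower and 3 higher), Nanos3 and Tdrd5 with a filter on detection p under 0.01 on at least 3 arrays, Msh5 with the mean of all probes, and Syce2, Nanos1, Nanos3, Tdrd5 and Zp3 at 2-fold. Normexp correction added Sycp2, Msh4 and Piwil1 as lower and Nanos2 and Tex101 as higher (26 and 6). The fitted sizes of 23 of the 27 called members were over 1.5 times larger with normexp, and those of 17 were over 1.5 times smaller with the authors' values. With the mean of all probes 6 were over 1.5 times smaller, among them Dazl (a change of -1.02), Ddx4 (-0.72), Stk31 (-0.93) and Rnf17 (-1.14). Requiring the fold or bound itself to reach 1.5, chosen after the data were seen, left 19 lower and 3 higher. Signal over background limits these results: for a silent gene only a bound can be given, and a gene silent in both lines may still be transcribed below it.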
